A study of Mus musculus with 17 samples.

Results

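The comparison described here set DA1-3b cells transfected with both fragments of p65/RelA against DA1-3b cells transfected with wild-type p65. Its members were the 3 arrays with the source name 1-361+362-549 and the 4 arrays with the source name WT, 7 of the 17 arrays in the series, and all 15254 genes that could be tested on them were compared. DA1-3b is a murine Bcr-Abl+ leukaemia cell line, labelled with the mouse strain C3H eOuJ. Every group grew in DMEM with serum and carried a plasmid. WT cells received full-length p65, and the compared cells received plasmids for residues 1-361 and for residues 362-549. The other groups were 1-361 alone (3 arrays), 362-549 alone (3 arrays) and the mutant D361E (4 arrays). Cells with the void plasmid that the treatment protocol names were not analysed here, so each difference is one from cells with extra wild-type p65, not from untransfected cells. The labels do not say whether the samples were separate cultures, clones or pools, and the p-values therefore reflect array-to-array spread that may be purely technical.

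p65, encoded by Rela, is a subunit of NF-kB. NF-kB dimers are held in the cytoplasm by IkB proteins such as IkB-alpha, the product of Nfkbia, until kinases of the IKK complex mark the inhibitor for degradation. p65 binds DNA through its N-terminal Rel homology domain and activates transcription through its C-terminal part. The series asks which genes are regulated by wild-type p65, by a D361E mutant that the design calls non-cleavable, and by the fragments left by cleavage, so a cut at residue 361 separates the DNA-binding part from the activating part. Among the best known targets of the pathway are genes for its own inhibitors, for chemokines and for survival proteins.

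Levels are given as log2 of the processed signal minus the 75th percentile of the same array, so a level of 0 is the brightness of that percentile and a difference of 1 is a doubling. The 75th percentile of the signal was 846.7 to 1213.6 on the arrays with both fragments and 773.0 to 1023.5 on the WT arrays, and 0 spots were saturated. Over the 15254 genes, both-fragment replicates 1 and 2 correlated at 0.994, while replicate 3 correlated with them at 0.977 and 0.966. Among WT arrays the pairs with replicate 3 gave 0.973 to 0.984 and the others 0.990 to 0.995. These correlations are across genes, which are not independent replicates. Replicate 3 of each group carries the title number of the same round, a round being the 6 consecutive numbers of the sample titles, and the labels do not say what a round was. Ptprc, the pan-leukocyte antigen CD45, lay at 1.22, 1.22 and 1.69 with both fragments and at 1.16, 1.49, 1.82 and 1.51 in WT. Of the fixed markers of other tissues, 1 of 10 for fibroblasts, 1 of 8 for epithelium and 3 of 9 for endothelium passed the filter on dim probes.

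In cells with both fragments, genes of mast cells, basophils and cytotoxic granules, the interleukin 2 receptor gene Il2ra and the survival gene Bcl2 were among the most reduced. Macrod2, Slc17a8 and the platelet gene Pf4 were among those that rose. With limma and a Benjamini-Hochberg adjusted p under 0.05, 783 genes were called, 5.13% of those tested, 304 higher (1.99%) and 479 lower (3.14%). The median fold was 1.77 for the genes called higher and 2.49 for those called lower, and changes of at least 8-fold numbered 13 upward and 58 downward. These folds come from the fitted differences. Of the genes called higher 33 were dim on every WT array, and of those called lower 67 were dim on every both-fragment array. The sizes of such changes are not well measured. All 7 arrays separated without overlap for 762 of the called genes, against 2525 of all genes tested (16.6%). With each array centred on its median the split was 100 higher and 350 lower. With the round of the title number as a block, all 783 remained called among 2602 higher (17.1%) and 2086 lower (13.7%). The count fell to 469, 448 and 547 without both-fragment replicate 1, both-fragment replicate 2 and WT replicate 2, rose to 1239 without both-fragment replicate 3, and lay between 625 and 660 without any other array. A single slide held arrays of both groups, both-fragment replicate 2 and WT replicate 1, and on it all 783 genes differed in the called direction. These arrays are among the 7 that gave the calls. For the 762 genes without overlap this direction was fixed in advance, so it is no separate support. With slide as a fixed block, which left 7 residual degrees of freedom, 242 genes were called, and 239 of the 783 remained. With slide as a random block 750 were called, and 749 of the 783 remained. Below, slide as a block means the fixed block unless marked otherwise. Sizes of dim genes depended on the background correction. With normexp, which adds an offset of 50 to each signal, the difference was over 1.5 times smaller for 34 of the 85 genes that the naming rule picked, 30 of them dim on at least 1 of the 7 arrays. Of the 21 with a fold given as "at least", 20 had a smaller fold with normexp, so those bounds hold only for the processed signal.

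**Figure D1:**
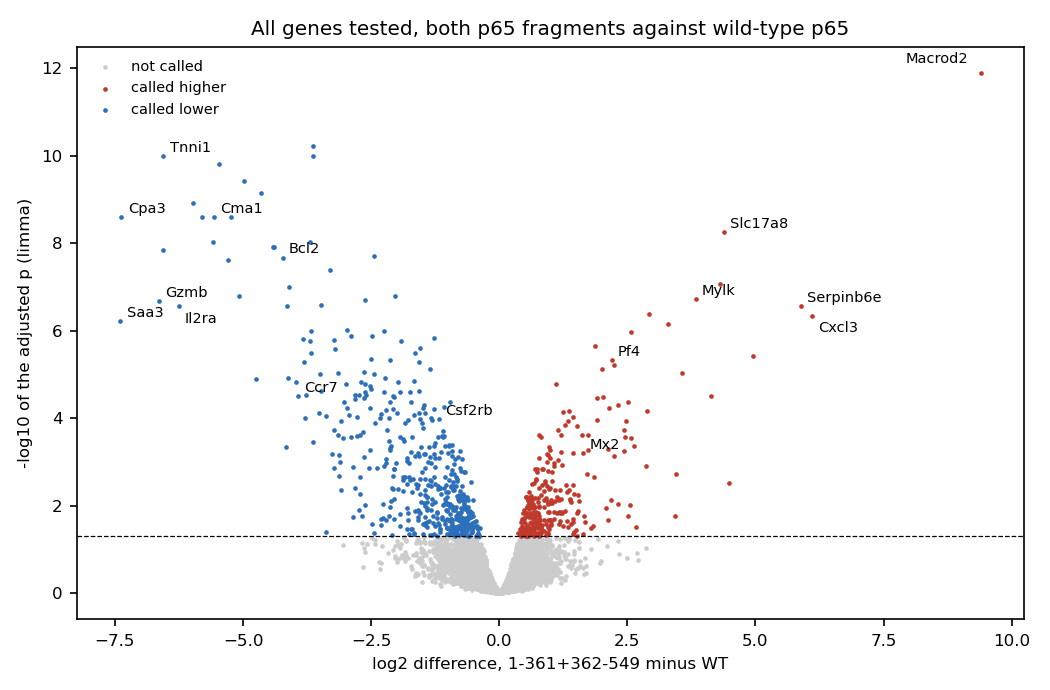
Each point is 1 of the 15254 genes tested, placed by its log2 difference between cells with both fragments and WT cells (horizontal axis) and by −log10 of its adjusted p from limma (vertical axis), with the 304 genes called higher in red, the 479 called lower in blue and the threshold of 0.05 as a dashed line. The blue points spread further from 0 than the red ones apart from Macrod2, whose level in WT was not well above background.

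Rela itself was not called. Its levels were 4.94, 4.86 and 4.79 with both fragments and 4.75, 4.68, 4.84 and 4.85 in WT, and these ranges overlap. The difference was 0.08 ± 0.10 (log2, SE; limma adjusted p = 0.712). Which part of Rela the probe reads was not settled, so it does not check which plasmid the cells carried. Of the genes for NF-kB subunits and the kinases upstream, 2 of 22 measured (9.09%) were called higher and 0 lower. Over all genes 1.99% were higher and 3.14% lower. The median difference of the 22 was 0.15, against 0.04 over all genes. Relb and Nfkb2 were the 2 called higher. Both belong to the alternative NF-kB pathway. Relb, the partner of p52, lay at 1.29, 1.37 and 0.87 with both fragments and 0.41, 0.04, 0.22 and 0.24 in WT. Every both-fragment array was above every WT array, with replicate 3 the lowest of the 3, and Relb rose by 0.95 ± 0.21 (adjusted p = 0.0141). The call was lost without both-fragment replicate 1 (adjusted p = 0.0756) or 2 (0.0881). Of the other kept Relb probes, 1 differed by 0.95 ± 0.24 and 1 by only 0.36 ± 0.34. Nfkb2, the precursor of p52, lay at 1.66, 1.68 and 0.98 against 0.77, 0.51, 0.64 and 0.65 and rose by 0.80 ± 0.19 (adjusted p = 0.0211), again without overlap. Its adjusted p was 0.134, 0.134 and 0.0682 without both-fragment replicate 1, both-fragment replicate 2 and WT replicate 2. With slide as a block 0 of the 22 were called (adjusted p = 0.141 for Relb and 0.21 for Nfkb2), and both calls were also lost with normexp or median scaling. With the round as a block 7 of the 22 were called higher and 3 lower, where 17.1% and 13.7% of all genes were. Ripk1, the kinase that couples TNF receptors to IKK, was then among the higher ones (0.78, adjusted p = 0.00101; 0.0514 without the block).

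Nfkbia and Tnfaip3, inhibitors that NF-kB induces to limit itself, fell. Of 20 measured inhibitors and feedback regulators 2 were called lower (10%, against 3.14% of all genes) and 0 higher, with a median of -0.05. Nfkbia lay at 4.31, 3.77 and 4.15 with both fragments and at 5.09, 4.84, 5.16 and 5.04 in WT, so that the highest both-fragment array was below the lowest WT array. It fell by 0.96 ± 0.22 (adjusted p = 0.0156), and the call was lost without both-fragment replicate 2 (adjusted p = 0.11). Tnfaip3, which encodes the ubiquitin-editing enzyme A20, lay at -1.18, -1.53 and -2.16 against -0.27, -0.42, -0.34 and -0.09. It fell by 1.34 ± 0.24 (adjusted p = 0.00271) and was called without any 1 of the 7 arrays. With slide as a block neither gene was called (adjusted p = 0.382 for Nfkbia and 0.0936 for Tnfaip3), nor without scaling or with median scaling, and Nfkbia was not called with normexp either. Nfkbib and Nfkbie, which encode the related inhibitors IkB-beta and IkB-epsilon, did not pass the test (0.44 and 0.08, adjusted p = 0.31 and 0.827). With the round as a block 5 of the 20 were called lower and 1 higher, where 13.7% and 17.1% of all genes were.

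Target genes of NF-kB went in both directions. Of 36 measured targets 8 were called lower (22.2%, against 3.14% of all genes) and 4 higher (11.1%, against 1.99%), and their median was -0.04. The round as a block gave 12 lower and 8 higher, where 13.7% and 17.1% of all genes were. Slide as a block gave 6 lower and 0 higher. Of the 8 that fell, 7 encode chemokines, cytokines or receptors. Ccl4, the chemokine MIP-1 beta, lay at -3.53, -3.89 and -2.63 with both fragments and -1.0, -0.51, 0.52 and -0.04 in WT and fell by 3.09 ± 0.39 (adjusted p = 0.000115). Csf1, the macrophage growth factor M-CSF, lay at -3.77, -3.68 and -3.25 against -1.77, -1.73, -1.06 and -1.70 and fell by 2.00 ± 0.24 (adjusted p = 7.78e-05). In neither gene did the arrays of the groups overlap. Ccr7, a receptor for lymph node chemokines, lay at -3.77, -4.17 and -2.59 against 0.24, 0.61, 0.97 and -0.18 and fell 15.2-fold (adjusted p = 3.07e-05). Il13, a type 2 cytokine of mast cells and basophils, was not well above background on any both-fragment array and was at least 11.2-fold lower (adjusted p = 1.30e-05). Ccl5, a T cell chemokine, and Ier3, an early response gene, fell, with differences of -1.63 ± 0.30 and -0.97 ± 0.17 (adjusted p = 0.00325 and 0.00259). Ccl3, the chemokine MIP-1 alpha, was dim on all both-fragment arrays, was well above background on 3 of the 4 WT arrays and was at least 2.06-fold lower (adjusted p = 1.46e-05). With normexp the differences were -1.69 for Il13 and -0.62 for Ccl3 (adjusted p = 0.125 and 0.838). Il2ra, the last of the 8, is described with the receptors. Besides Relb and Nfkb2, the higher ones were Olr1, a scavenger receptor gene (1.37 ± 0.26, adjusted p = 0.00437), and Bcl2a1d, a survival gene of the Bcl2 family (0.80, adjusted p = 0.0458). Bcl2a1d lost the call without any array but both-fragment replicate 3, with adjusted p up to 0.22. Tnf and Il6, classical targets, did not pass the test (0.35 and 0.17, adjusted p = 0.524 and 0.8).

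**Figure D2:**
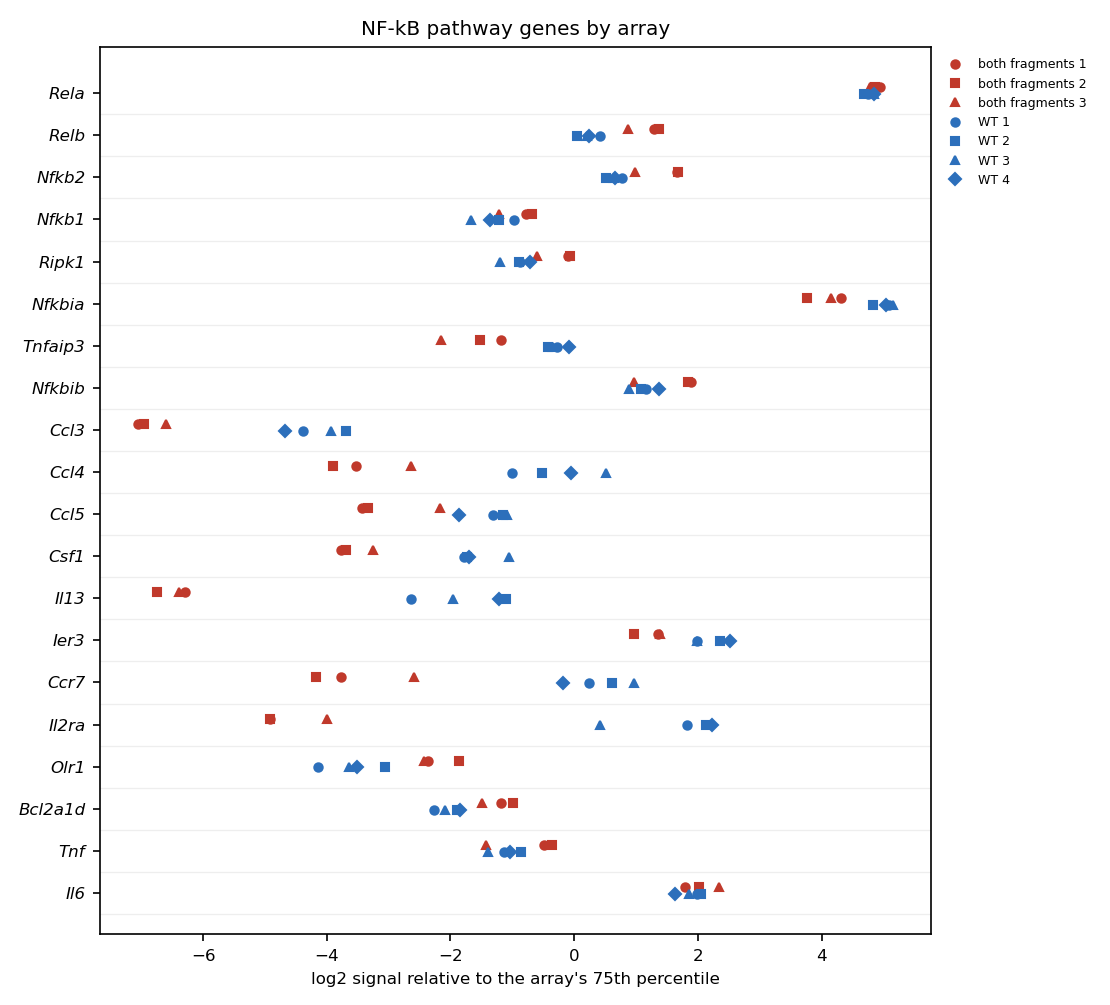
Levels of 20 NF-kB pathway genes on each array (horizontal axis, log2 signal relative to the array's 75th percentile), with 1 symbol shape per replicate, both fragments in red and WT in blue. Il2ra, Ccr7, Il13 and Ccl4 are far lower on all 3 both-fragment arrays, Nfkbia and Tnfaip3 are lower by about 1, and Rela, Tnf and Il6 overlap.

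The start regions of 4 of these genes are shown because each holds a match to the recognition sequence of NF-kB near the gene start. They are the 250 bases before the annotated start from RefSeq (build GRCm38.p6), printed 5′ to 3′ on the gene's strand in lower case, with each match to the kappa B consensus on either strand in capitals; overlapping matches run together. Where a gene has several starts, the window with the most matches is shown. Il2ra, Nfkbia and Tnfaip3 fell, and Nfkb2 rose.
Il2ra, chr2:11642542-11642791, plus strand: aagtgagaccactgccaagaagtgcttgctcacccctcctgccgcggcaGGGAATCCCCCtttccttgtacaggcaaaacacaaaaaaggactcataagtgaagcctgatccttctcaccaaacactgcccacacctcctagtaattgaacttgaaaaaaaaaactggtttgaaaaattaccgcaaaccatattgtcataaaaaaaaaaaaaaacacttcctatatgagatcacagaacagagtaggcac
Nfkbia, chr12:55492648-55492897, minus strand: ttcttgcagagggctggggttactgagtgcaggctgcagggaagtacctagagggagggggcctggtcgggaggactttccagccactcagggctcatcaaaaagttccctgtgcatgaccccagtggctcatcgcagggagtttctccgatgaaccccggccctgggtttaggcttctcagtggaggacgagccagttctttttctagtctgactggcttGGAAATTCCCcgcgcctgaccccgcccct
Tnfaip3, chr10:19015411-19015660, minus strand: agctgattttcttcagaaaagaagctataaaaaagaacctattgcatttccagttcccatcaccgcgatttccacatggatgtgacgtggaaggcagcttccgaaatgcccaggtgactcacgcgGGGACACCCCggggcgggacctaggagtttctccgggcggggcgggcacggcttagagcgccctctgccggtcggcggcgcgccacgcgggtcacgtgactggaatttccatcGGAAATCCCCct
Nfkb2, chr19:46304487-46304736, plus strand: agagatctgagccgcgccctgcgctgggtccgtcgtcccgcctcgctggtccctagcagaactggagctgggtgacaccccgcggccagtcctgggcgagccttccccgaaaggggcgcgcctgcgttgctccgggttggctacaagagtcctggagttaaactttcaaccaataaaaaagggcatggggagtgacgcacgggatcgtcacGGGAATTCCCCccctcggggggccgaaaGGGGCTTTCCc
A match was found for 22 of the 59 measured genes of the 3 NF-kB lists that have a promoter in the table (37.3%), and for 518 of 9708 genes tested (5.34%). Of the called NF-kB genes with a promoter, 5 of 7 lower ones and 1 of 3 higher ones held a match. Ccl3 and Il13, which fell, and Olr1 and Bcl2a1d, which rose, held none. Of the NF-kB genes not called, 16 of 49 held a match (32.7%). Of all called genes, 7.65% of those higher and 7.85% of those lower did. A match is a string of letters and not a measured binding site.

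Among the deepest falls were those of genes of mast cells and basophils, which store proteases in granules and carry the high-affinity IgE receptor. Of 12 marker genes, 8 were measured, and 5 of them were called lower (62.5%, against 3.14% of all genes) and 0 higher. Their median difference over the 8 was -2.90. Of the 8, Fcer1a and Mcpt8 were dim on every both-fragment array. Cpa3, the mast cell carboxypeptidase, lay at -6.34, -5.31 and -7.02 with both fragments and 0.60, 1.60, 1.35 and 1.05 in WT. The fitted log2 difference was -7.37 ± 0.35 (adjusted p = 2.48e-09), and -4.11 with normexp (adjusted p = 3.07e-05). Only 1 of the 3 both-fragment arrays was well above background, so the size of this fall is not well measured. Cma1, the mast cell chymase, lay at -2.60, -2.64 and -2.99 against 2.37, 3.04, 3.23 and 2.64 and fell 47.3-fold (adjusted p = 2.48e-09). Mcpt4, another chymase, lay at -6.06, -4.60 and -4.58 against -2.20, -1.33, -1.44 and -1.36 with a log2 difference of -3.50 ± 0.34 (adjusted p = 9.73e-06), and -1.52 with normexp (adjusted p = 0.0509). It was well above background on 2 of the 3 both-fragment arrays. Fcer1a, the IgE-binding chain of the receptor, lay at -7.25, -7.56 and -6.91 against -3.68, -3.39, -3.23 and -3.97, and all 3 both-fragment arrays were not well above background. It was at least 3.14-fold lower (adjusted p = 9.92e-07), and with normexp the difference was -0.93 (adjusted p = 0.627). Fcer1g, the signalling chain of the same receptor, named here after its value was seen, fell by 4.98 ± 0.20 (adjusted p = 3.70e-10). The marker programme did not fall as a whole. Hdc, the histamine-forming enzyme, and Tpsb2, a tryptase, differed by 0.28 and 0.17 (adjusted p = 0.317 and 0.849), and Gata2, a transcription factor of this lineage, by -0.53 (adjusted p = 0.0999; 0.00299 with the round as a block). The summed linear level of the 8 markers was 28.7 to 37.2 with both fragments and 46.3 to 62.1 in WT, and its part in the other differences was not tested. In both groups most of this sum came from Hdc, Tpsb2 and Gata2, which were not called, so it does not describe the genes that fell. In bulk RNA fewer cells of a type and less RNA per cell cannot be told apart. When only probes well above background on all 17 arrays were tested 1 of the 5 calls was left, with normexp 2 were, and with slide as a block all 5 were.

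Granzyme genes, which these cells share with cytotoxic lymphocytes, also fell, as did genes of other functions. Gzmb, granzyme B, lay at -2.89, -2.66 and -2.69 with both fragments and 2.69, 3.99, 4.74 and 4.13 in WT, a 99.4-fold fall (log2 -6.64 ± 0.46, adjusted p = 2.08e-07). Gzmc, granzyme C, lay at -3.91, -3.59 and -3.31 against 2.08, 2.77, 3.71 and 3.24 and fell 93.9-fold (adjusted p = 1.39e-08). All both-fragment arrays were more than 5 below the lowest WT array for both genes. Gzmb was the only called gene of 3 measured natural killer cell markers, whose summed level was 1.93 to 3.51 against 8.85 to 29.7. In WT most of this sum was Gzmb. Tph1, which makes serotonin in mast cells, lay at -4.99, -5.10 and -5.29 against 0.89, 1.32, 0.99 and 0.19 with a log2 difference of -5.97 ± 0.26 (adjusted p = 1.17e-09), -3.48 with normexp, and 1 of the 3 both-fragment arrays well above background. Cd200r3, an activating receptor of mast cells and basophils, was at least 25.4-fold lower (adjusted p = 9.50e-09), and Lat2, an adaptor in IgE receptor signalling, at least 23.6-fold lower (adjusted p = 2.44e-08). Saa3, an acute phase protein, had the largest fitted fall of the 15254 genes, from 3.56, 4.68, 5.33 and 3.79 in WT to -2.67, -2.79 and -3.71 with both fragments (log2 -7.40 ± 0.56, adjusted p = 6.00e-07). Tnni1, a troponin of slow muscle, and Itih3, a hyaluronan-binding protein of plasma, were at least 24.1-fold and 30.1-fold lower (adjusted p = 1.02e-10 and 2.48e-09). Epx, the eosinophil peroxidase, and Adgre1, a macrophage surface antigen, were each the 1 called gene of their marker list (adjusted p = 0.00531 and 2.61e-07). Epx was at least 2.46-fold lower, and Adgre1 at least 10.6-fold lower on the probe used for the gene. The other kept Adgre1 probe differed by -2.45, with 2 of the 3 both-fragment arrays well above background. With normexp the differences of Cd200r3, Lat2, Tnni1 and Itih3 were -2.44, -2.61, -2.55 and -2.56, and Epx and Adgre1 were not called (adjusted p = 0.841 and 0.126).

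**Figure D3:**
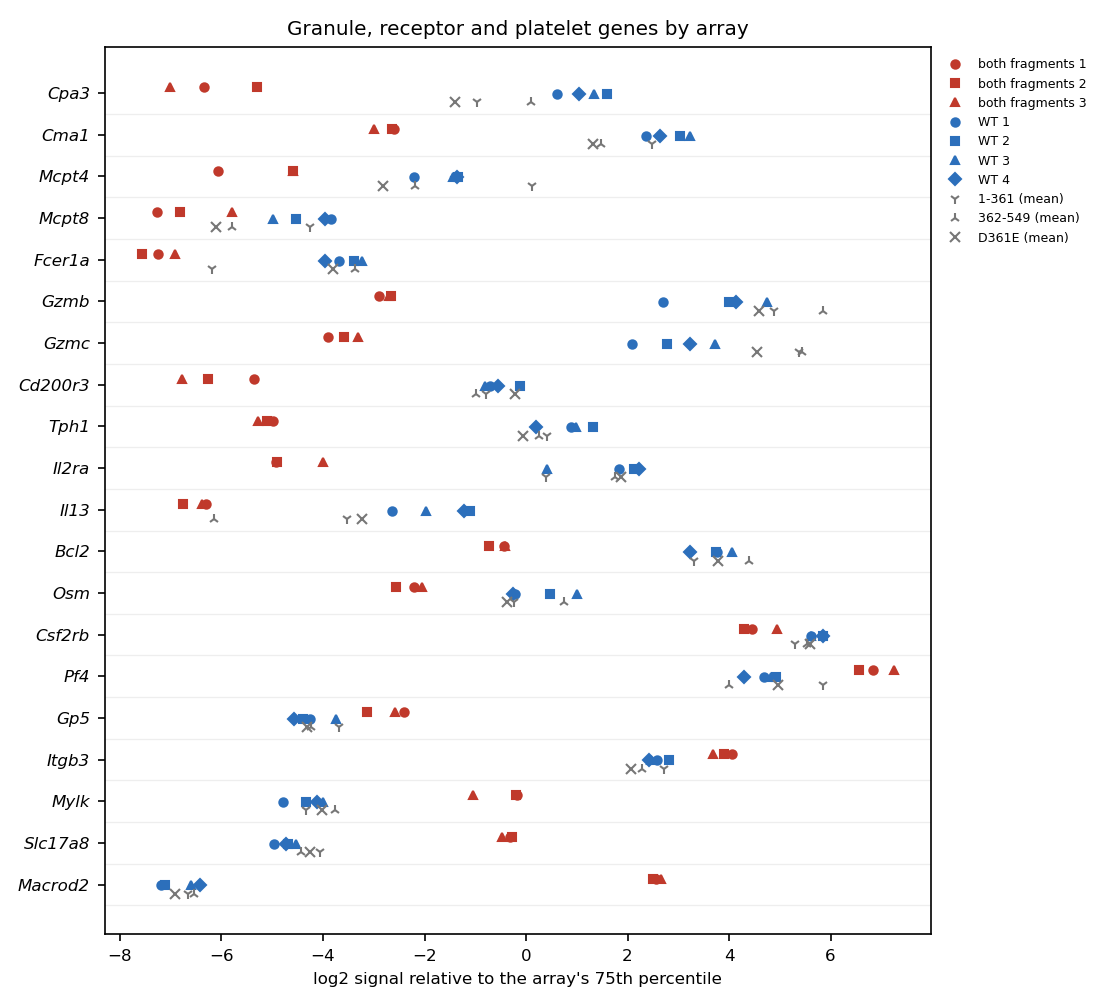
Levels of 20 granule, receptor and platelet genes (horizontal axis, log2 signal relative to the array's 75th percentile), with each both-fragment array in red, each WT array in blue and the means of the other 3 groups in grey. Cpa3, Gzmb, Gzmc, Il2ra and Bcl2 are lower on the both-fragment arrays than in any other group, and Pf4, Mylk, Slc17a8 and Macrod2 are higher.

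Several of these protease genes lie side by side on mouse chromosome 14. Between the probes of Cma1 (chr14:56561491-56562550) and Gzmb (chr14:56877916-56877975, build mm9 as in the array files), a span of 316.5 kb, 20 probes were placed and 8 were bright enough to test. Of the 8, 7 were called lower and 0 higher. Besides Cma1, Mcpt4, Gzmc and Gzmb these were Mcpt8, the basophil protease (at least 1.85-fold lower, adjusted p = 0.0198), the pseudogene Mcpt-ps1 (at least 2.23-fold lower, adjusted p = 9.06e-06) and a probe without a gene name. Mcpt8 lay at -7.28, -6.81 and -5.79 against -3.84, -4.54, -4.98 and -3.96, with 3 of the 4 WT arrays well above background. It lost the call without both-fragment replicate 1 (adjusted p = 0.123) or 2 (0.0914) and without WT replicate 1 (0.0573) or 4 (0.054). Cma2, a further chymase gene, lay at -2.77, -3.10 and -1.77 against -2.12, -1.77, -1.12 and -1.65, and these overlap (adjusted p = 0.135; 0.0416 with the round as a block). In the 250 kb before the span and the 700 kb after it, 23 genes were tested, with 1 called lower and 0 higher. That gene was Ltb4r1, the leukotriene B4 receptor, which fell by 2.78 ± 0.38 (adjusted p = 0.000251). Ltb4r1, Cma2, Mcpt-ps1 and the span itself were looked at after the values were seen, and its genes are related copies whose probes could share signal, so the counts describe the locus and do not test it.

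**Figure D4:**
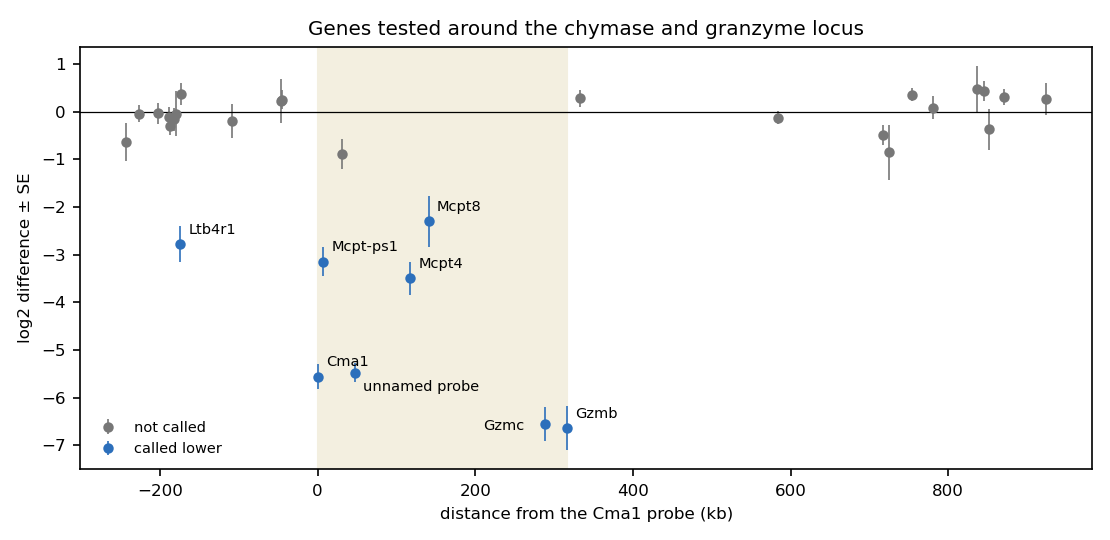
Log2 difference ± SE (limma) between cells with both fragments and WT cells for the genes tested along the chromosome, by distance from the Cma1 probe in kb, with genes called lower in blue and genes not called in grey. Within the shaded span from Cma1 to Gzmb 7 of 8 points lie below −2, and outside it 1 of 23 does.

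GATA factors drive many mast cell genes, and the start regions of Cpa3 and Fcer1a are shown because both genes fell and both hold the letters GATAA. The windows are the 250 bases before the RefSeq start (build GRCm38.p6) on the gene's strand, with GATAA, or TTATC where it lies on the other strand, in capitals.
Cpa3, chr3:20242182-20242431, minus strand: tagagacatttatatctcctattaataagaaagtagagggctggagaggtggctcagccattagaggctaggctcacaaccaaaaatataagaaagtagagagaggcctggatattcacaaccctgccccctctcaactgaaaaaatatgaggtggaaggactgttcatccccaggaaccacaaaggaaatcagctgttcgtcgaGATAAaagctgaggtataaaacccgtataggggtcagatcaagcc
Fcer1a, chr1:173227230-173227479, minus strand: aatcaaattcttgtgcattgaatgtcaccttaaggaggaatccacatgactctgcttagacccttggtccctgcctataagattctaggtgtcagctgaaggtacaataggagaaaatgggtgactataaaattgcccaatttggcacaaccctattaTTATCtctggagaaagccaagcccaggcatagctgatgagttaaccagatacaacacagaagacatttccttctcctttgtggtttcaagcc
On either strand GATAA was found for 4 of the 7 measured mast cell and basophil markers with a promoter in the table (57.1%), namely Cpa3, Fcer1a, Cma1 and Mcpt4, and for 1790 of 9708 genes tested (18.4%). Mcpt8, which fell, held none.

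Several genes that relay cytokine signals fell as well. Il2ra, the alpha chain of the interleukin 2 receptor, lay at -4.92, -4.91 and -3.99 with both fragments and 1.83, 2.13, 0.41 and 2.22 in WT, with WT replicate 3 the lowest of its group, with a log2 difference of -6.26 ± 0.44 (adjusted p = 2.72e-07), -4.01 with normexp, and 2 of the 3 both-fragment arrays well above background. Csf2rb and Csf2rb2, the beta chains of the receptors for interleukin 3 and its relatives, lay at 4.46, 4.28 and 4.94 against 5.62, 5.85, 5.62 and 5.84 and at 4.14, 4.02 and 4.70 against 5.34, 5.45, 5.12 and 5.50. They fell, with differences of -1.17 ± 0.15 and -1.06 ± 0.15 (adjusted p = 0.000105 and 0.000425), and as near-identical copies the genes may share probe signal. Of 25 measured cytokine and chemokine receptor genes, 4 were called lower, Il2ra, Csf2rb, Csf2rb2 and Ccr7, and 3 higher. These shares were 16% and 12%, against 3.14% and 1.99% of all genes. The 4 lower calls held without any 1 array and with slide as a block, which left 0 higher, and the higher ones numbered 0 without both-fragment replicate 2 or WT replicate 1 and 1 without WT replicate 2 or 4. The list for STAT5 and Bcr-Abl output holds target genes and also signalling genes such as Stat5a, Gab2 and Dok2. Of its 26 measured genes, 7 were called lower (26.9%, against 3.14% of all genes) and 0 higher, with a median of -0.43. With the round as a block 13 were lower and 1 higher, where 13.7% and 17.1% of all genes were. With slide as a block 4 were lower. Osm, the cytokine oncostatin M, lay at -2.21, -2.56 and -2.04 against -0.22, 0.47, 1.01 and -0.26 and fell 5.73-fold (adjusted p = 5.75e-05). Socs3 and Socs1, feedback inhibitors of cytokine receptors, fell, with differences of -1.10 ± 0.15 and -1.44 ± 0.27 (adjusted p = 0.000195 and 0.00434), and Socs1 was not called with slide as a block (adjusted p = 0.144). Id2 and Id1, inhibitors of basic helix-loop-helix factors, fell, with differences of -2.12 ± 0.31 and -0.93 ± 0.13 (adjusted p = 0.000485 and 0.000412).

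Bcl2, the founding survival gene of its family, was among the most reduced. Its levels were -0.43, -0.73 and -0.42 with both fragments and 3.76, 3.73, 4.05 and 3.23 in WT, a gap of more than 3 between the nearest arrays. It fell 18.7-fold (log2 -4.22 ± 0.24, adjusted p = 2.12e-08). Its relative Bcl2l1, which encodes Bcl-xL, lay at 5.76, 5.76 and 5.98 against 5.61, 5.79, 5.81 and 5.71 (adjusted p = 0.741). Of 31 measured genes of the Bcl2 family and caspases 2 were called lower (6.45%, against 3.14% of all genes) and 1 higher (3.23%, against 1.99%). Immediate early genes, which respond within minutes to growth signals, had 3 of 20 called lower (15%), 0 higher and a median of -0.53. With the round as a block 10 were lower, where 13.7% of all genes were, and with slide as a block 1 was. Btg2, an immediate early and antiproliferative gene that p53 also induces, lay at -1.05, -1.42 and -1.17 against 0.13, 0.40, 0.88 and 1.05. It fell by 1.83 ± 0.23 (adjusted p = 0.000128). Of 41 measured genes of the integrated stress response, which raises amino acid supply, 5 were called lower (12.2%, against 3.14% of all genes) and 0 higher. Cth, an enzyme of cysteine synthesis, was at least 4.08-fold lower (adjusted p = 2.78e-07), Nupr1 and Atf5, stress-induced transcription regulators, fell, with differences of -2.59 ± 0.28 and -1.45 ± 0.18 (adjusted p = 3.01e-05 and 7.69e-05), and Cebpb, which also drives myeloid genes, fell by 1.26 ± 0.18 (adjusted p = 0.000373). With normexp Cth differed by -1.12 (adjusted p = 0.487). With the round as a block 12 of the 41 were called lower and 3 higher, where 13.7% and 17.1% of all genes were. Cdkn2a, the locus of the tumour suppressors p16 and ARF, lay at -2.78, -3.12 and -2.25 against -0.98, -0.82, -1.12 and -1.03 and fell 3.31-fold (adjusted p = 0.000595), with a log2 difference of -1.07 and no call with normexp (adjusted p = 0.124).

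Some megakaryocyte and platelet genes rose. Of 9 measured markers 3 were called higher (33.3%, against 1.99% of all genes) and 0 lower, with a median of 0.71. With the round as a block 5 were higher, where 17.1% of all genes were, and with slide as a block 1 was. Pf4, platelet factor 4, lay at 6.83, 6.56 and 7.24 with both fragments and 4.68, 4.93, 4.83 and 4.29 in WT and rose 4.58-fold (log2 2.20 ± 0.20, adjusted p = 4.78e-06). Gp5, a subunit of the von Willebrand factor receptor, lay at -2.40, -3.14 and -2.59 against -4.26, -4.40, -3.74 and -4.57 and rose by 1.53 ± 0.30 (adjusted p = 0.00563), with 3 of the 4 WT arrays well above background. Neither gene overlapped between the groups. Itgb3, the platelet integrin beta chain, lay at 4.06, 3.90 and 3.69 against 2.58, 2.82, 2.47 and 2.43 and rose by 1.31 ± 0.24 (adjusted p = 0.00343). With slide as a block Pf4 was called (adjusted p = 0.00283) and Gp5 and Itgb3 were not (0.154 and 0.0889), and with normexp Gp5 differed by 0.54 (adjusted p = 0.834). Its partner Itga2b, which marks the same lineage, lay at 3.46, 3.13 and 3.68 against 3.53, 3.79, 4.05 and 3.92 (adjusted p = 0.319). The summed linear level of the 9 markers was 125 to 205 against 47.1 to 63.0. With both fragments most of this sum was Pf4, so it does not describe the list as a whole. Gp6, the collagen receptor, was not well above background on any both-fragment array.

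The largest rises were single genes of unrelated function. Macrod2, a mono-ADP-ribose hydrolase, lay at 2.55, 2.51 and 2.66 with both fragments and -7.18, -7.10, -6.60 and -6.42 in WT. The WT arrays were not well above background, and Macrod2 was at least 199-fold higher (adjusted p = 1.27e-12). Cxcl3, a neutrophil chemokine, and Serpinb6e, a serine protease inhibitor, were likewise dim on every WT array and at least 23.1-fold and 21.3-fold higher (adjusted p = 4.55e-07 and 2.72e-07). Inha, the alpha subunit of inhibin, was at least 8.51-fold higher (adjusted p = 3.76e-06). Slc17a8, a vesicular glutamate transporter, lay at -0.31, -0.27 and -0.47 against -4.97, -4.68, -4.54 and -4.73 with a log2 difference of 4.38 ± 0.22 (adjusted p = 5.58e-09) and 1 of the 4 WT arrays well above background. Mylk, the myosin light chain kinase, lay at -0.17, -0.20 and -1.05 against -4.79, -4.33, -4.01 and -4.12 and rose 14.3-fold (adjusted p = 1.91e-07), while its other kept probe differed by 0.40. B3gnt5, a glycolipid-building transferase, lay at -2.19, -1.53 and -1.64 against -4.84, -4.96, -4.82 and -5.72 with a log2 difference of 3.30 ± 0.25 (adjusted p = 6.99e-07) and 2 of the 4 WT arrays well above background. Usp17lc, Glt28d2 and Trim66 were each dim on every WT array and at least 4.65-fold, 5.11-fold and 2.87-fold higher (adjusted p = 8.46e-08, 3.15e-05 and 0.00186). With normexp the differences were 5.40 for Macrod2, 2.36 for Cxcl3, 2.39 for Serpinb6e, 2.38 for Slc17a8 and 2.10 for Mylk, all called. Inha, B3gnt5, Usp17lc, Glt28d2 and Trim66 were not called with normexp (differences of 1.52, 1.45, 1.10, 1.02 and 0.92). Of 6 measured T cell markers 1 was called higher (16.7%, against 1.99% of all genes) and 2 lower (33.3%, against 3.14%). Cd5, a scavenger-type receptor, lay at -2.59, -2.82 and -1.25 against -5.70, -4.45, -5.10 and -5.11 with a log2 difference of 2.87 ± 0.47 (adjusted p = 0.00123), although only 1 WT array had it well above background. Cd3d and Cd3g encode chains of the T cell receptor complex. Cd3d fell by 0.95 ± 0.11 (adjusted p = 4.23e-05), and Cd3g, measured on 2 of the 4 WT arrays only, was at least 1.13-fold lower (adjusted p = 0.00397). With normexp neither Cd5 nor Cd3g was called (differences of 1.13 and -0.52).

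A group of genes induced by interferon rose. Of 50 measured, 10 were called higher (20% against 1.99% of all genes) and 2 lower (4% against 3.14%), with a median of 0.15. With the round as a block the counts were 20 and 4, where 17.1% and 13.7% of all genes were called. Mx2, an antiviral GTPase, lay at -1.0, -1.29 and -1.56 with both fragments and -2.49, -3.12, -2.99 and -3.07 in WT and rose by 1.63 ± 0.25 (adjusted p = 0.000639). Parp9, an ADP-ribosyltransferase family member, lay at 0.08, 0.19 and -0.23 against -0.73, -0.79, -0.81 and -0.92 and rose by 0.83 ± 0.14 (adjusted p = 0.00145). Ifi47, an interferon-gamma-induced GTPase, lay at 2.63, 2.71 and 2.69 against 2.01, 2.04, 2.02 and 1.94, the tightest of these 3 genes, and rose by 0.68 ± 0.12 (adjusted p = 0.00304). Rtp4, a chaperone of membrane receptors, was dim on every WT array and at least 6.5-fold higher (adjusted p = 0.00309). Gbp2, a guanylate-binding protein, was 1 of the 2 lower ones and fell by 1.41 ± 0.30 (adjusted p = 0.0114), with 2 of the 3 both-fragment arrays well above background. Without both-fragment replicate 1 the number called higher was 5, with slide as a block it was 0, with normexp background correction 1 and with median scaling 3.

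Genes for DNA replication gave different counts with and without the round as a block. Of 46 measured, 0 were called higher or lower, with a median of 0.39. With the round as a block 30 were called higher and 1 lower, where 17.1% and 13.7% of all genes were. Mcm5, a subunit of the replicative helicase, lay at 4.75, 4.74 and 3.16 with both fragments and at 3.69, 3.46, 2.78 and 4.24 in WT. Both-fragment arrays 1 and 2 were above all WT arrays, both-fragment array 3 was below 3 of them, and each both-fragment array was above the WT array of its own round. The difference was 0.67 (adjusted p = 0.458), and 0.92 with the round as a block (adjusted p = 0.00486). Pcna, the replication clamp, lay at 5.74, 5.84 and 4.71 against 4.89, 4.94, 4.26 and 5.66, with differences of 0.49 (adjusted p = 0.548) and 0.76 with the block (adjusted p = 0.0139). The list's median over both-fragment arrays 1, 2 and 3 was 0.69, 0.77 and −0.29 relative to the WT mean. Cell cycle genes had 1 of 44 called higher and 1 lower (2.27% each, against 1.99% and 3.14% of all genes), and 20 higher and 4 lower with the block. Foxm1, a transcription factor of mitosis, was the one higher, at 1.11, 1.11 and 1.18 against 0.50, 0.45, 0.46 and 0.49 (0.66 ± 0.15, adjusted p = 0.0184). Its adjusted p was 0.0672, 0.0667 and 0.0538 without both-fragment replicate 1, both-fragment replicate 2 and WT replicate 2, and 0.344 with slide as a block. Genes of the proteasome (31 measured), of splicing (43), of ribosome biogenesis (40) and of mitochondrial ribosomes and import (35) had 0 called either way, and 18, 24, 17 and 17 called higher with the block.

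**Figure D5:**
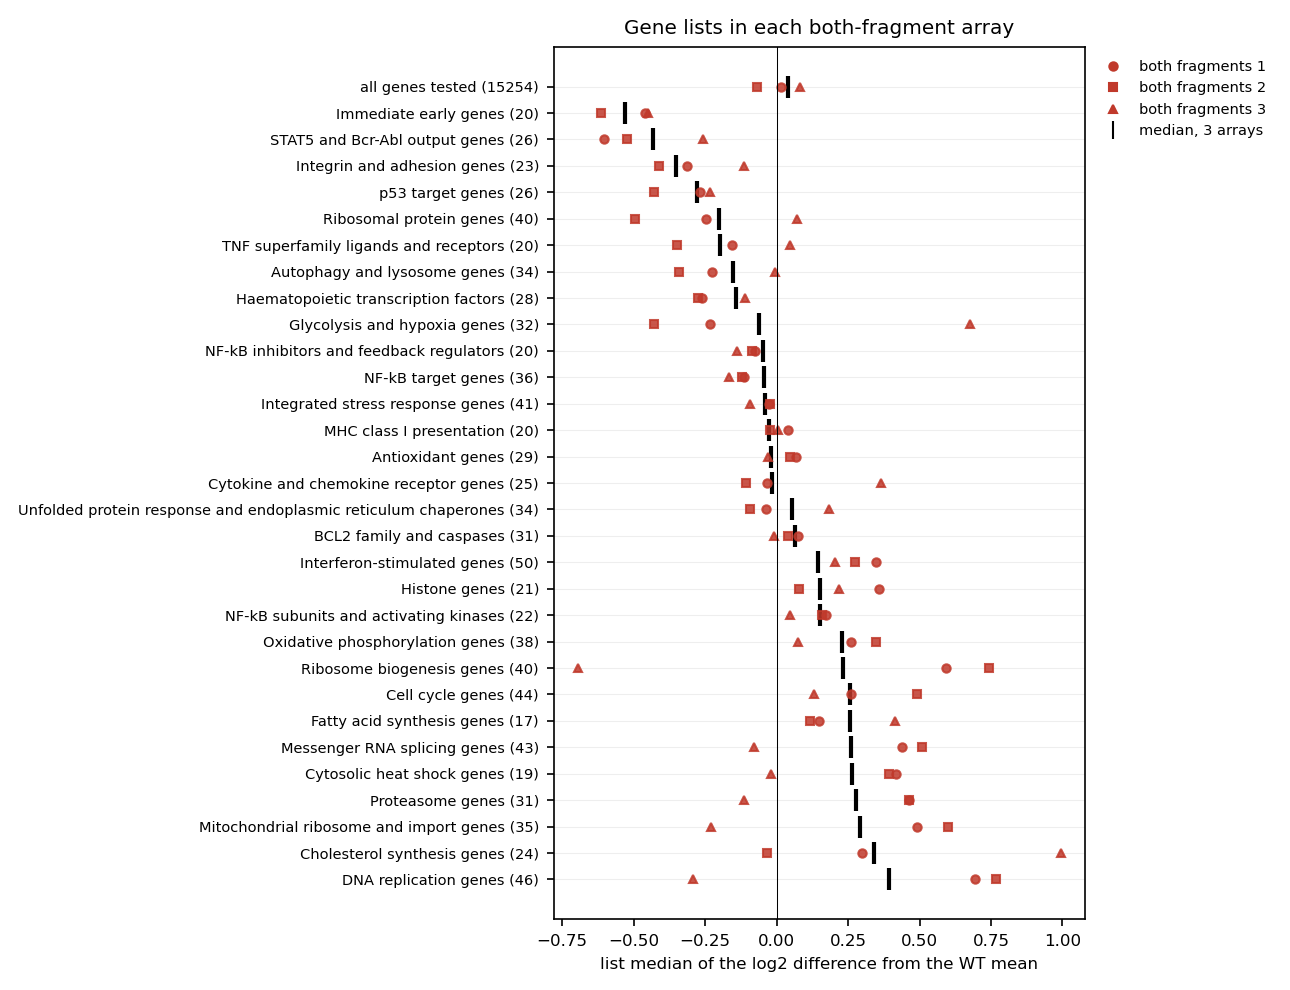
For each gene list (number of genes measured in brackets), the median log2 difference over its genes between each both-fragment array and the WT mean (red symbols, 1 shape per replicate) and the median of the fitted differences (black bar). Ribosome biogenesis, DNA replication and cholesterol synthesis genes are spread widely, with array 3 apart from arrays 1 and 2, while the immediate early and STAT5 lists lie below 0 on all 3 arrays.

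The counts in the other lists were small, and their shares stand beside 1.99% of all genes called higher and 3.14% called lower. Of 23 measured integrin and adhesion genes, 4 were called lower (17.4%) and 1, Itgb3, higher (4.35%), with a median of -0.35. Itgb7 and Itga4, which pair into a homing receptor for the gut, lay at 1.37, 1.41 and 2.06 against 2.85, 2.91, 2.50 and 2.73 and at 0.47, 0.62 and 0.38 against 1.29, 1.33, 1.43 and 1.72. They fell, with differences of -1.14 ± 0.22 and -0.95 ± 0.18 (adjusted p = 0.00529 and 0.00362), and the groups did not overlap for either gene. Neither was called with slide as a block (adjusted p = 0.0844 and 0.142). Selplg, the ligand of P-selectin, fell by 0.98 ± 0.14 (adjusted p = 0.000406). Of 20 measured TNF superfamily ligands and receptors 3 were called lower (15%) and 1 higher (5%). Tnfsf14, the ligand LIGHT, and Tnfrsf1b, the second TNF receptor, fell, with differences of -1.35 ± 0.21 and -1.15 ± 0.21 (adjusted p = 0.000781 and 0.004; 2 of 3 both-fragment arrays well above background for Tnfrsf1b), and Tnfsf13b, the B cell factor BAFF, rose by 1.18 ± 0.22 (adjusted p = 0.00438). With slide as a block 0 of the 20 were called, and with normexp Tnfrsf1b differed by -0.42. Of 24 measured genes of cholesterol synthesis 1 was called higher (4.17%) and 0 lower. It was Idi1, an isomerase of the pathway, at 4.35, 4.35 and 3.95 against 2.47, 2.43, 3.15 and 2.00 (1.71 ± 0.29, adjusted p = 0.00187; 0.0508 with slide as a block). Of 28 haematopoietic transcription factors 3 were called lower and 0 higher, among them Klf1, a regulator of globin genes, at 0.29, 0.38 and 0.24 against 1.43, 1.31, 0.65 and 1.18 (-0.84 ± 0.18, adjusted p = 0.0108; 0.0506 without both-fragment replicate 1 and 0.199 with slide as a block). Klf1 is also the 1 lower gene (12.5%) of 8 measured erythroid markers, of which 2 were called higher (25%), with a median of 0.60. These were the globin gene Hbb-bt (1.33 ± 0.32, adjusted p = 0.0224) and Epor, the erythropoietin receptor (0.44 ± 0.11, adjusted p = 0.029). Each lost the call without any of 5 arrays, Hbb-bt without any both-fragment array or WT replicate 1 or 4 and Epor without both-fragment replicate 1 or 2 or WT replicate 1, 2 or 3. With slide as a block 0 of the 8 were called.

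Of the 783 genes, 514 also set the both-fragment cells apart from the cells with either fragment alone and from D361E cells. Called in the same direction against WT, 1-361, 362-549 and D361E were 197 genes higher (1.29% of those tested) and 317 lower (2.08%). These 4 comparisons share the 3 both-fragment arrays, so they are not independent. The counts were 94 and 191 without both-fragment replicate 1, 85 and 176 without replicate 2 and 358 and 598 without replicate 3, and without WT replicate 2 the number higher was 131. Gzmb lay at 4.88 ± 0.75 (SD) in 1-361 (n = 3), 5.85 ± 0.81 in 362-549 (n = 3) and 4.59 ± 0.40 in D361E (n = 4), and the both-fragment minus other differences were -7.62, -8.59 and -7.34 (adjusted p = 1.10e-07, 2.92e-08 and 6.12e-08). Bcl2 lay at 3.31 ± 0.28, 4.40 ± 0.41 and 3.77 ± 0.36 in the same order, and the differences were -3.84, -4.93 and -4.30 (adjusted p = 1.66e-07, 1.11e-08 and 1.71e-08). Macrod2 lay at -6.66 ± 0.24, -6.54 ± 0.01 and -6.92 ± 0.42, near its WT level (adjusted p = 4.37e-12, 5.36e-12 and 1.09e-12). Pf4 lay at 5.85 ± 0.15, 3.99 ± 0.13 and 4.96 ± 0.31, and the difference from 1-361 was the smallest of the 3, 1.03 (adjusted p = 0.00768). The remaining 269 of the 783 did not follow this pattern. Among them, Itih3 lay at -6.33 ± 0.44 in 362-549, near its level with both fragments (adjusted p = 0.63). Nupr1 lay at -3.28 ± 0.23 in 1-361, with a difference of -0.07 (adjusted p = 0.902). B3gnt5 lay at -2.46 ± 0.19 in 1-361, with a difference of 0.67 (adjusted p = 0.118). Of the NF-kB genes described above, Relb and Nfkb2 were called higher and Il2ra, Ccr7, Ccl3, Ccl4, Csf1 and Ier3 lower against all 4 groups. Tnfaip3 differed from 1-361 and 362-549 by 0.44 and 0.58 (adjusted p = 0.26 and 0.132) and Nfkbia by 0.05 and 0.53 (adjusted p = 0.9 and 0.134), with 1-361 listed first.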

How the data were processed

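Total RNA of the 7 samples was hybridised with Cy3 label to 1-colour Agilent arrays. The deposited intensity values are processed signals from Agilent Feature Extraction 10.7.3.1, per the file headers and the submitters' processing notes, which subtracted background, detrended each array and did not scale between arrays. Signals were turned to log2, the array's 75th percentile was subtracted, and control and outlier spots were dropped. A probe was kept when all arrays of any 1 of the 5 groups had it well above background (19769 of 39429), the brightest probe stood for a gene, and 15254 genes were tested. Of all probes 27508 were named by accession through a RefSeq table (GRCm38.p6) and 11921 kept the file's name. Testing used limma 3.58.1 in R 4.3.3 (lmFit, eBayes) over all 17 arrays in 1 model with 12 residual degrees of freedom. Files were read with the package data.table, version 1.17.8. The code was run on simulated data with independent noise on each array. Those data held no rounds and no background floor, so they do not check the model for either. A gene dim on every array of a group is given as "at least N-fold", against the higher of its own signal and the lowest signal well above background.

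Genes were named by a rule: Rela; the 12 largest called rises and 12 largest falls without overlap; up to 4 called members of each of 30 gene lists and 14 marker lists; and the 6 rises and 6 falls furthest from all 4 other groups; members of lists may be given too. Some genes that the rule names are not reported here. The members and lists were chosen with earlier results of these data known. The main model, which gave every value not marked otherwise, held no block and so ignores any pairing by round. The rounds were taken as pairing the arrays only in an alternative fit. Deviations from the group means correlated at 0.34, 0.47 and 0.66 within rounds 1, 2 and 3, although both-fragment replicate 2 correlated at 0.58 with WT replicate 1. Alternatives were the round or slide as a block, other scalings, background correction, filters, probe averaging, array weights and leaving out each array.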

Additional observations from a re-analysis of the deposited data

Results flagged for a closer look

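In 2 of 85 named genes 1 of the 4 WT arrays lay far from the others by Dixon's criterion, where about 1 in 20 groups would do so by chance. B3gnt5 was at -5.72 on WT replicate 4 and at -4.96 to -4.82 on the other WT arrays. Mcpt4 was at -2.20 on WT replicate 1 and at -1.44 to -1.33 on the others.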

How the results depend on the processing

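All 85 named genes kept their direction under each alternative in which they were tested, but not their size. With normexp 34 of the 85 differences were over 1.5 times smaller. Examples are -1.69 in place of -4.75 for Il13, -2.55 in place of -6.56 for Tnni1 and 5.40 in place of 9.40 for Macrod2. Of the 84 that were called, 64 kept the call without any 1 of the 7 arrays, 84 with the round as a block (replicate block), 47 with slide as a fixed block and 39 with normexp background correction. The replicate block kept all 783 calls, so it kept those of these 84 too, which were picked because they were called. Genes not called could gain a call with it, as Ripk1 and Gata2 did. With slide as a random block 81 of the 84 kept the call. Against 783 genes called (304 higher, 479 lower), the counts were 4688 (2602, 2086) with the replicate block, 7852 (4215, 3637) with array weights, 424 (146, 278) on the 7 arrays alone, 242 (64, 178) with slide as a block, 432 (192, 240) without scaling, 450 (100, 350) with median scaling, 199 (55, 144) with normexp, and 186 higher without the filter. Leaving out 1 array gave 448 to 1239 (150 to 458 higher, 298 to 781 lower). Genes called higher and lower against all 4 groups numbered 1601 and 1442 with the replicate block, 2175 and 2323 with array weights, 44 and 105 with slide as a block, 73 and 172 with median scaling, 36 and 89 with normexp and 109 and 203 without the filter. Without scaling 134 were lower. Leaving out 1 array gave 85 to 358 and 176 to 598, and leaving out replicate 3 of both groups, chosen after seeing the data, gave 490 lower. Interferon genes called higher numbered 20 with the replicate block, 30 with array weights, 6 on the 7 arrays alone and without the filter, 3 with median scaling, 1 with normexp, 0 with slide as a block and 5 to 9 without 1 array. STAT5 and Bcr-Abl genes called lower numbered 13 and 14 with the replicate block and array weights and 4 with slide as a block. NF-kB targets called lower numbered 4 with normexp and 5 with the filter on all 17 arrays, and mast cell markers 2 and 1. The filter on all arrays tests fewer genes, and the cause of the other changes was not tested. Without scaling the median of all genes was 0.23 in place of 0.04. Each group has 3 or 4 arrays, which limits the precision.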
